A study of Homo sapiens with 3 samples.

Results

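Genes that build cholesterol and fatty acids were examined for peaks of the transcription factors MAX and BMAL1 in the established human triple-negative breast cancer line MDA-MB-231. The set held 28 genes, chosen by their function in these pathways, out of 20163 protein-coding genes of GENCODE release 44 mapped to hg19. It comprised 7 genes that lead from acetyl-CoA to the prenyl diphosphates and 10 of the squalene and sterol steps. Another 5 belonged to the sterol-sensing system and 6 to fatty acid synthesis. The cells were grown in serum-containing medium with no drug or silencing named in the labels, and their formaldehyde cross-linked chromatin was immunoprecipitated with an antibody against either protein, with 1 library each and 1 input library shared by both. A promoter peak was a listed peak whose summit, the position of highest signal, lay within 1 kb of any annotated transcription start site (TSS) of the gene.

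BMAL1 is the basic helix-loop-helix activator of the circadian clock, and MAX is the obligate partner of the MYC family and of the repressors of the MXD family and MNT. Both proteins recognize the E-box CACGTG. Cholesterol is made in the cytosol and endoplasmic reticulum from acetyl-CoA by way of mevalonate, squalene and lanosterol, and fatty acids are made from the same acetyl-CoA by way of malonyl-CoA. Transcription of both branches is driven by the SREBP factors, which are also basic helix-loop-helix proteins and bind sterol regulatory elements (SRE) as well as some E-boxes, commonly beside the CCAAT box of NF-Y. SCAP carries SREBP out of the endoplasmic reticulum when sterols are low, and the INSIG proteins hold it back when sterols are high.

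MAX was listed at the promoters of 23 of the 28 genes, and BMAL1 at none. The share of genes with a MAX promoter peak was 82.1% (Wilson 95% confidence interval 64.4% to 92.1%), against 36.3% of all protein-coding genes (7310 of 20163). The background for BMAL1 was 1.84% (372 of 20163), at which 0.517 of 28 genes would carry a peak, so the count of 0 cannot be told apart from the background. A count of 0 of 28 allows a share of up to 10.7% when the limit is set at 3 counts, and the Wilson 95% interval reaches 12.1%. Intervals and limits cover counting error only. With 1 library per antibody there was no replicate check, and no test of the gene set was made.

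All 28 genes had a CpG-rich promoter (at least 55% GC and a CpG observed/expected ratio of at least 0.65 in the 500 bp around the canonical TSS), compared with 62.8% of protein-coding genes. Among the protein-coding genes with such promoters, 49.7% (6201 of 12488) had a MAX promoter peak, and among those without, 14.8%. The genes of lipid synthesis also had more annotated TSSs, with a median of 8 against 5. In CpG-rich genes with at least 8 TSSs, a background added after the data were seen, the share was 56.2% (3141 of 5587). Of the 15 genes of the set with at least 8 TSSs, 14 had a MAX promoter peak. The part of promoter composition or TSS number in the difference from the background was not tested.

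**Figure D1:**
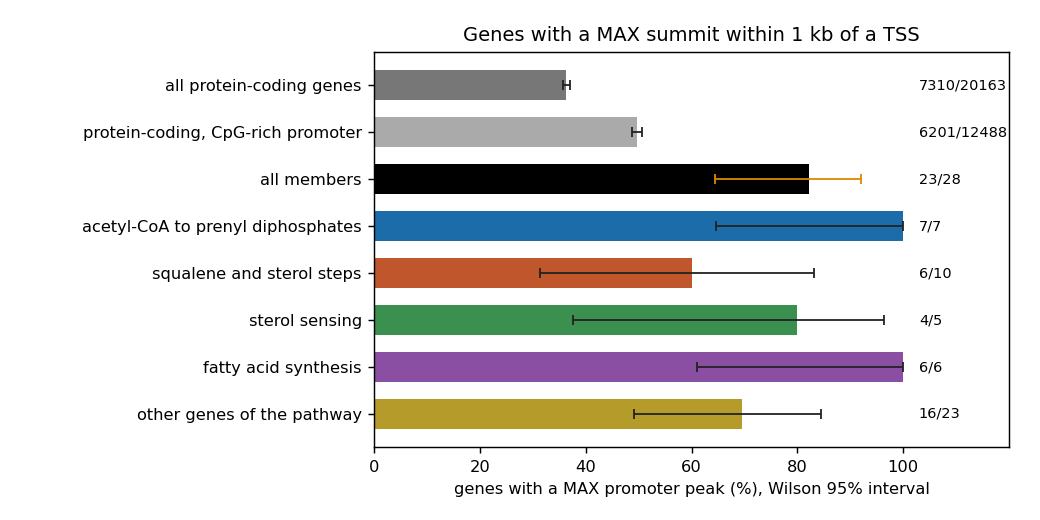
Percentage of genes with a MAX promoter peak (x axis) in all protein-coding genes, in those with a CpG-rich promoter, in the 28 genes of lipid synthesis and their functional groups, and in 23 other genes of the pathway. Lines are Wilson 95% confidence intervals and the counts stand at the right. The bar of the 28 genes reaches 82.1% against 36.3% for all protein-coding genes, and the 4 groups have wide, overlapping intervals.

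The count did not depend on the exact width of the promoter window. In the 23 genes with a MAX promoter peak the nearest MAX summit lay at most 517 bp from a TSS, and in the other 5 it lay at least 12742 bp away. Any window between these distances would therefore give 23 genes, while the share of all protein-coding genes rose from 33.2% at 517 bp to 46.2% at 10 kb. Closest to the 1 kb limit on the inside were a weaker MVD peak with its summit at 972 bp and an INSIG1 peak at 872 bp, and on the outside an ELOVL6 peak at 1103 bp and an SREBF1 peak at 1164 bp. These 4 peaks belonged to genes that had another promoter peak.

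The 34 MAX promoter peaks of the set were of ordinary strength. Fold enrichment, here the MAX pileup over the background the peak caller used at the same place, ranged from 4.32 to 22.6. Its median was 10.2, the same as over all 7285 MAX promoter peaks of protein-coding genes (10.2). Taking the strongest peak of each gene, the median was 10.9 in the 23 genes and 10.8 in the 7310 protein-coding genes with a peak. Of the 23 genes, 13 lay above that background median, 9 below it and 7 above its upper quartile of 13.9. The pileup, the number of extended fragments over the summit, had a median of 19.5 in the set and 18 over all MAX promoter peaks, so most values rest on about this many fragments and small differences between genes are not resolved.

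**Figure D2:**
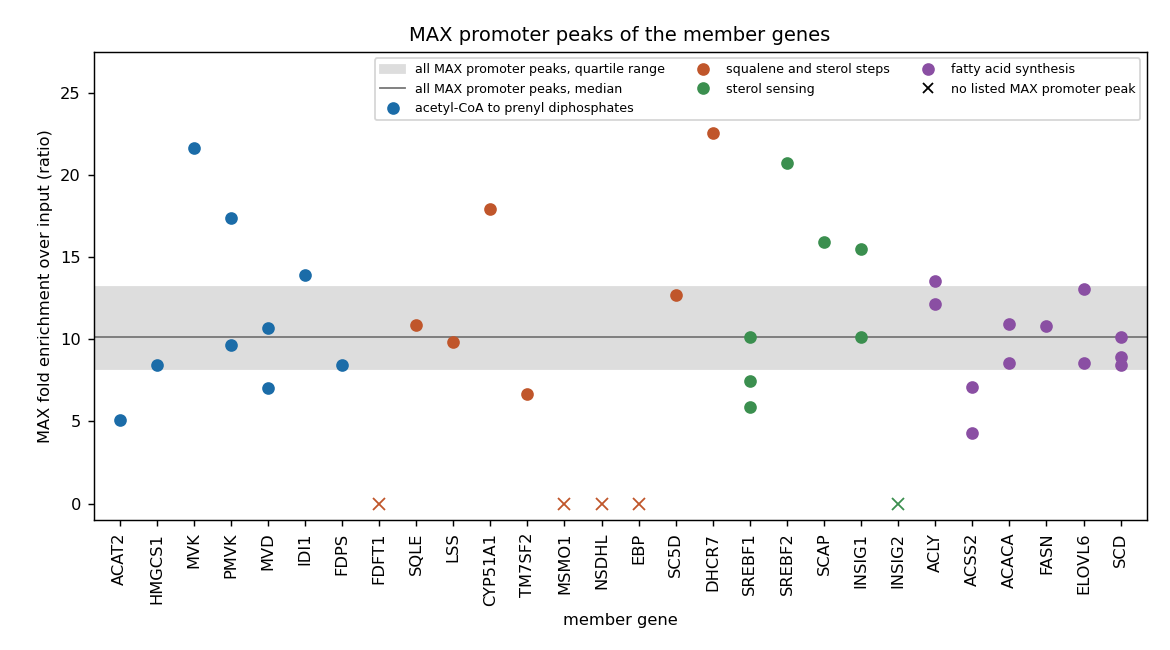
MAX fold enrichment over input (y axis, ratio) of each of the 34 promoter peaks, by gene (x axis) and colored by functional group. The grey band and line give the quartiles and the median (10.2) of all MAX promoter peaks, and crosses at 0 mark the 5 genes without a listed peak. DHCR7, MVK and SREBF2 stand highest, and ACSS2 and ACAT2 hold the lowest values.

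All 7 genes from acetyl-CoA to the prenyl diphosphates had a MAX promoter peak. The strongest was at MVK, mevalonate kinase (chr12:110010667-110011535, hg19), where 31 fragments stood 21.7-fold over input, above 97.3% of the MAX list. Its summit lay 117 bp upstream of the first MVK TSS and 656 bp upstream of the canonical one. The same summit was 342 bp downstream of a TSS of MMAB, the neighboring gene on the opposite strand, so this peak belongs to both promoters. PMVK, which adds the next phosphate, had a peak over a coding exon (fold enrichment 17.4, summit 94 bp downstream of its single annotated TSS) and a weaker one 440 bp upstream (9.67). MVD, which decarboxylates mevalonate diphosphate, had a peak 155 bp upstream of a TSS (10.7) and the intronic one near an internal TSS (7.05).

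At IDI1, the isomerase gene, MAX reached 13.9-fold over input at 65 bp before the TSS, and the summit also fell in the promoter window of WDR37. HMGCS1, which makes HMG-CoA, and FDPS, farnesyl diphosphate synthase, had equal fold enrichments of 8.46 with summits 8 bp and 4 bp from a TSS. Their pileups differed, at 20 and 13 fragments. The weakest gene of the group was ACAT2, the cytosolic thiolase that starts the pathway. Its peak (chr6:160183037-160183406) held 12 fragments, 5.08-fold over input with -log10 p at 5.89, above 1.37% of the MAX list, and lay also within 356 bp of a TSS of SOD2.

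In 6 of the 10 genes of the squalene and sterol steps a MAX promoter peak was listed. DHCR7, which reduces 7-dehydrocholesterol to cholesterol, had the highest fold enrichment of the set, 22.6 with a pileup of 36 (chr11:71159268-71160240), above 97.7% of the MAX list, and its summit stood 168 bp before a TSS. CYP51A1, the lanosterol demethylase, followed with 17.9 (summit 78 bp upstream), and SC5D, the sterol desaturase, with 12.7 (35 bp upstream). SQLE, the squalene epoxidase, had 10.9 (159 bp upstream). LSS, lanosterol synthase, had 9.84 with the summit in coding sequence 241 bp downstream of a TSS. TM7SF2, a sterol reductase, was weakest with 6.68 and a -log10 p of 8.61.

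FDFT1, MSMO1, NSDHL and EBP were the sterol genes without a MAX promoter peak, and INSIG2 was the only such gene outside this group. FDFT1 encodes squalene synthase, the first enzyme committed to sterols, and the products of MSMO1, NSDHL and EBP act on the sterol nucleus. The nearest MAX summit lay 12.7 kb from a TSS at EBP, 79.7 kb at INSIG2, 112.6 kb at MSMO1, 230.8 kb at FDFT1 and 735.8 kb at NSDHL. The promoters of these 5 genes were CpG-rich and held CCAAT like those of most genes of the set, and FDFT1 held a CACGTG within 500 bp of its canonical TSS. An unlisted peak means that none passed the peak caller's threshold at this depth.

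**Figure D3:**
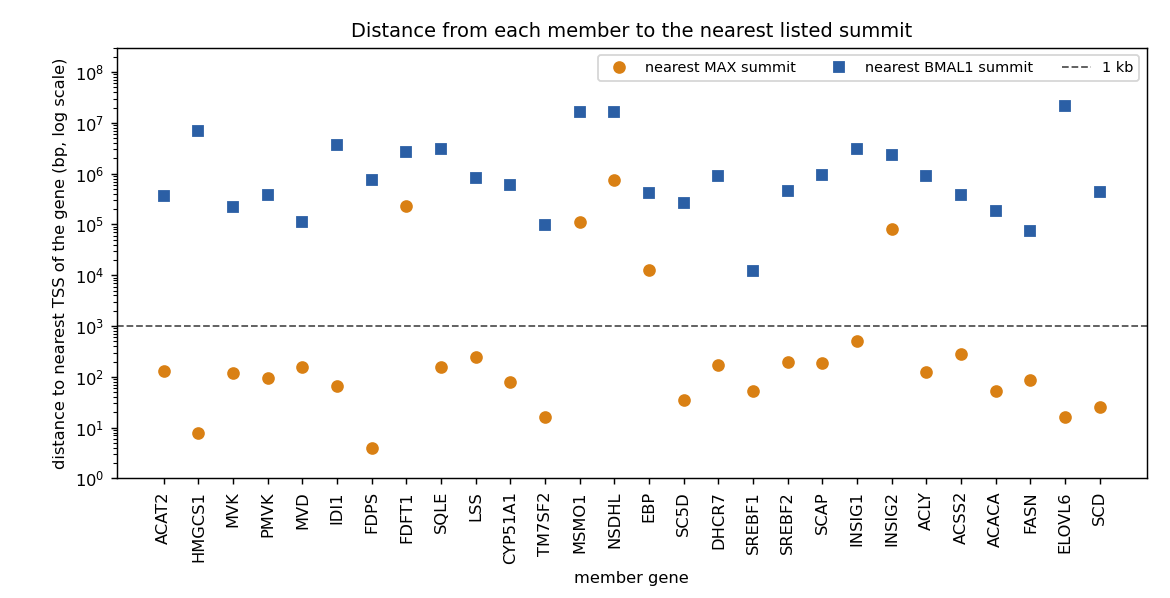
Distance in bp (log scale, y axis) from the nearest TSS of each of the 28 genes (x axis) to the nearest listed MAX summit (circles) and BMAL1 summit (squares), with the 1 kb limit dashed. MAX circles fall either at or below 517 bp or at or above 12742 bp, and every BMAL1 square lies above 12 kb, the lowest at SREBF1 (12306 bp).

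Among the genes of the sterol-sensing system, MAX was listed at SREBF2 (fold enrichment 20.8), SCAP (15.9), INSIG1 (15.5 and 10.2) and SREBF1 (10.2, 7.49 and 5.86). SREBF2, the SREBP gene most tied to cholesterol, was bound 195 bp before the TSS, with 27 fragments. The input background there was 1.30, close to the lowest value in the MAX list (1.28). At INSIG1 one peak lay 517 bp downstream of a TSS and the other 872 bp upstream, so that a window of 300 bp would leave the gene out. SREBF1, whose products govern mainly fatty acid genes, had 3 promoter peaks and 1 further intronic peak.

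The order of SREBF1 changed with the measure. Its main peak (chr17:17739367-17740006, in an intron 584 bp downstream of the canonical TSS) had the largest pileup of the set, 44 fragments, above 97.7% of the MAX list, but a fold enrichment above only 54.8% of it. The input background under the 4 peaks of the gene was 4.14 to 5.12, whereas the median over all MAX peaks was 1.87 and 1.81% of them exceeded 4. The 34 other MAX peaks within 500 kb of the gene had a median background of 3.94 (range 2.86 to 5.91), so the high input value extended over the surrounding region. Why the input was high there was not tested.

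**Figure D4:**
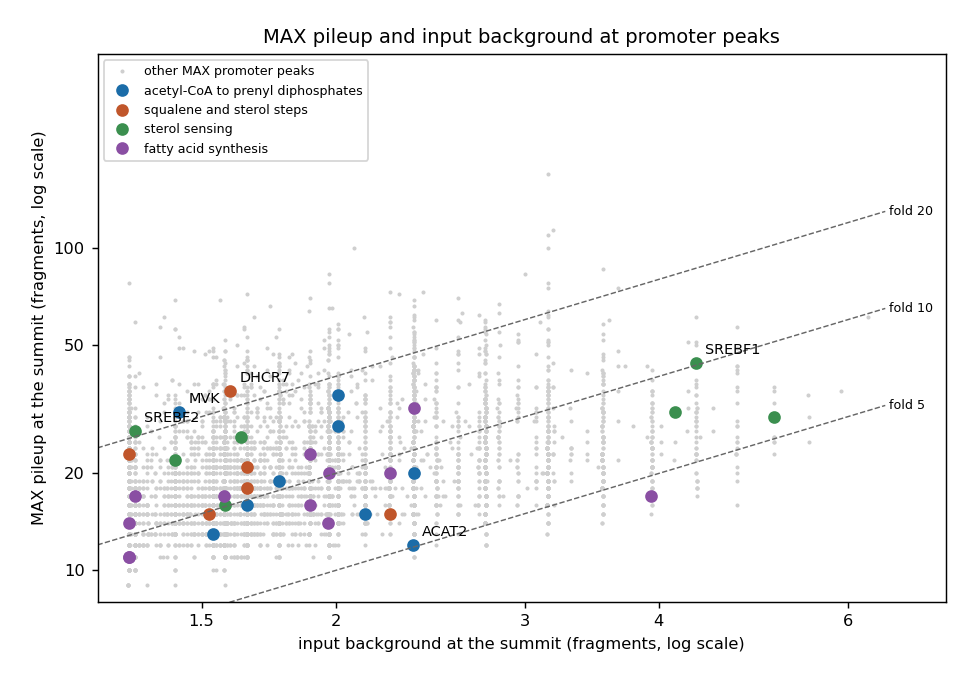
MAX pileup at the summit (y axis) against the input background, which is pileup divided by fold enrichment (x axis). Both are in fragments on a log scale. The 34 promoter peaks of the set are colored by group and the other MAX promoter peaks are grey. The lowest background, about 1.28, is a floor shared by many peaks. Dashed lines mark fold enrichments of 5, 10 and 20. The SREBF1 peaks stand far to the right, and SREBF2, MVK and DHCR7 lie above the line of 20 at low background.

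All 6 genes of fatty acid synthesis carried MAX, with 12 promoter peaks in total and a narrow range of the strongest peak per gene, 7.11 to 13.5. ACLY, which splits citrate into acetyl-CoA, had a fold enrichment of 13.5 at an upstream TSS (chr17:40086488-40086930, 32 fragments), where the summit also fell in the promoter window of ODAD4. A second ACLY peak of 12.2 was the longest of the set (1697 bp) and spanned the canonical TSS, with its summit 722 bp downstream. ELOVL6, which lengthens palmitate, had 13.1 at 16 bp upstream of a TSS and 8.57 further downstream. ACACA, acetyl-CoA carboxylase, had 10.9 at an internal TSS and 8.57 at its main promoter, the latter shared with TADA2A. FASN, fatty acid synthase, had 1 peak of 10.8 in an intron, 86 bp upstream of an internal TSS and 826 bp downstream of the canonical one. SCD, the stearoyl-CoA desaturase, had 3 peaks of 10.2, 8.91 and 8.46 around its single TSS. ACSS2, which makes acetyl-CoA from acetate, had the weakest pair, 7.11 and 4.32.

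More than 1 promoter peak occurred at 9 of the 23 genes (39.1%, interval 22.2% to 59.2%), against 16.4% of the protein-coding genes with a MAX promoter peak (1198 of 7310). These 23 genes had a median of 9 annotated TSSs. The median was 5 over all protein-coding genes, a broader group than the 7310 with a MAX promoter peak. The part of TSS number in this difference was not tested. Of the 34 summits, 23 lay within 300 bp of a TSS. By the canonical transcript, 20 were upstream of that transcript, 11 in an intron, 2 in coding sequence and 1 in the 5′ UTR. Some of the 20 lay inside the annotated gene, as at ACLY and DHCR7. Peaks inside a gene but over 1 kb from all of its TSSs numbered 3 for MAX and 0 for BMAL1. Such peaks were not counted over all protein-coding genes. They lay in the 3′ UTR of LSS (chr21:47609058-47609455, fold enrichment 11, 26 fragments, with a pair of CACGTG in the 200 bp at the summit), in an intron of SREBF1 (chr17:17725445-17725920, 4.87) and in an intron of ELOVL6 (chr4:111118282-111118632, 5.71).

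Most of these MAX sites held no canonical E-box. CACGTG occurred within the 200 bp at the summit in 6 of the 34 peaks (17.6%, interval 8.35% to 33.5%), against 20.5% of all MAX promoter peaks (1493 of 7285). This comparison depended on the window, since in the 100 bp at the summit 1 of the 34 peaks held CACGTG against 12.9% of all MAX promoter peaks. The related CACGTT (E'-box) occurred in 4 peaks (11.8%, background 6.53%) and CACGCG in 7 (20.6%, background 18.7%). With all 3 elements together, 16 of 34 peaks had a match (47.1%, background 40.6%). Both strands were searched. The 6 CACGTG elements are shown on the strand of the gene, 30 bases each with CACGTG in capitals. They are shown because they are the canonical sites in the 200 bp at these summits. LSS, SCAP, INSIG1 and FASN also held CACGTG within 500 bp of the canonical TSS, but not in the 200 bp at a promoter summit.

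The E-boxes in the 200 bp at the MAX promoter summits of the set, read from GRCh37 (hg19), were these.
MVK, chr12:110010987-110011016: gtctctggcgccCACGTGgcccacgttgcc
PMVK, chr1:154909006-154909035: agctctccgcatCACGTGacacgaggagtg
SC5D, chr11:121163337-121163366: gcgcgcggcgccCACGTGaccgcggagagc
DHCR7, chr11:71159710-71159739: ctccgcgcggccCACGTGgccactccgcca
SREBF1, chr17:17739767-17739796: tccgggccgggaCACGTGcgcctctacgcg
SCD, chr10:102107766-102107795: cccagctgcctcCACGTGtctcttctcctg

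In MVK and DHCR7 the element read CCACGTGG, the form of 16.8% of the 1633 E-boxes at MAX promoter summits, and in PMVK it read TCACGTGA, the form of 6.31%. The MVK element was followed within the same 30 bases by a CACGTT, so that this promoter held both. The centers of the elements lay 24 bp (SCD) to 82 bp (SC5D) from the summit, and only that of SCD fell within 50 bp. The 6 peaks with CACGTG had a median fold enrichment of 15.1 (range 10.2 to 22.6) and the other 28 a median of 9.76 (range 4.32 to 20.8). Over all MAX promoter peaks the medians were 12.5 with and 9.76 without the element. By fold enrichment, SREBF2, SCAP and CYP51A1 were among the strongest peaks of the set, and they had no CACGTG in the 200 bp at the summit. The CYP51A1 value was taken over the floor of the input background (1.28), with a pileup of 23 fragments.

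**Figure D5:**
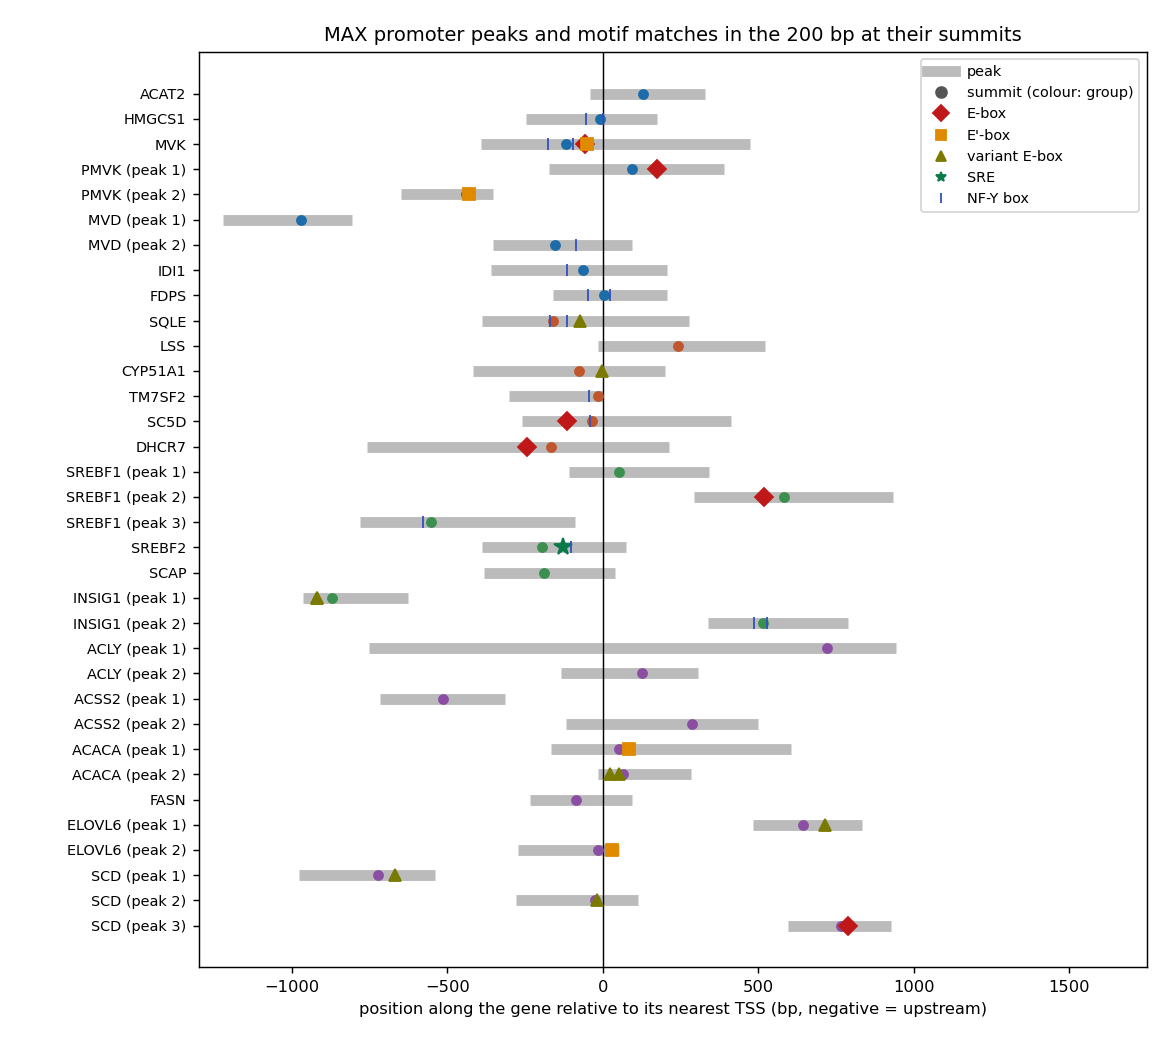
Position of the 34 MAX promoter peaks (grey bars) and their summits (circles, colored by group) along the gene, in bp from the nearest TSS (x axis, negative is upstream), with motif matches in the 200 bp at each summit. A variant E-box is CACGCG and an NF-Y box is CCAAT. The 6 E-boxes lie in MVK, PMVK, SC5D, DHCR7, SREBF1 and SCD, and the single SRE in SREBF2.

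The SRE was searched for as TCACNCCAC on both strands. Within 500 bp of the canonical TSS it was found in HMGCS1, SREBF2 and FASN (3 of 28 genes, 10.7%, against 4.31% of protein-coding genes), and all 3 had a MAX promoter peak. CCAAT was found in 24 of the 28 promoters (85.7%, background 63.7%), and those without it were PMVK, SREBF1, SCAP and ACACA. MAX was listed at 19 of the 24 genes with CCAAT and at 4 of the 4 without. Over all protein-coding genes the shares were 36.7% with CCAAT and 36.8% without. At the SREBF2 summit the SRE lay 66 bp away, and it is shown because it was the single SRE within the 200 bp at any MAX summit of the set (1 of 34, background 0.865%).
SREBF2, chr22:42228966-42228995: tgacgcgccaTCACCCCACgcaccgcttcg

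Over all protein-coding genes, MAX promoter peaks occurred at 35.2% of those with this SRE and 36.8% of those without, and at 52.4% of those with CACGTG within 500 bp against 33.2% of those without. In the set, 7 of 8 genes with CACGTG in this wider window and 16 of 20 without it had a MAX promoter peak. A match to these letters is a description of the sequence and was not tested as a binding site.

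No MAX promoter peak of the set overlapped a BMAL1 peak (0 of 34, Wilson 95% interval 0% to 10.2%). Over all MAX promoter peaks 4.06% did (296 of 7285), a share inside this interval. At the level of genes, 355 of the 372 protein-coding genes with a BMAL1 promoter peak also had a MAX promoter peak. Of the 7310 genes with MAX, 4.86% had BMAL1, a share that would give 1.12 of the 23 genes here. The count of 0 genes cannot be told apart from that share. Distances to the nearest BMAL1 summit were measured for the 28 genes only, so whether they differ from those of other genes was not tested. The nearest BMAL1 summit lay a median of 677 kb from the genes, and 1 of 28 genes had one within 50 kb. This was SREBF1, with a BMAL1 peak at chr17:17752323-17752861 that was 12306 bp from its closest TSS and 359 bp from a TSS of TOM1L2. It had a fold enrichment of 13.1 with 63 fragments, above 70.2% of the BMAL1 list by fold enrichment. It held a CACGTG in the 200 bp at its summit and overlapped a MAX peak with a fold enrichment of 11.03. This BMAL1 peak lay within the 500 kb around SREBF1 where the input background of other MAX peaks was high (median 3.94, against 1.87 over all MAX peaks). The next BMAL1 summits were 75.5 kb from FASN (near ASPSCR1, fold enrichment 8.01) and 97.9 kb from TM7SF2 (near ARL2, 7.46). These neighboring genes were named after the distances were seen.

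Of 23 other genes of lipid synthesis and its control, 16 had a MAX promoter peak (69.6%, interval 49.1% to 84.4%) and 0 a BMAL1 promoter peak. The highest fold enrichments were those of ELOVL5, a fatty acid elongase (16.4, summit 7 bp from a TSS), MBTPS2, a protease that releases SREBP (14.03), STARD4, a sterol carrier (13.3), OXSM, the mitochondrial ketoacyl synthase (12.3), and the desaturase gene FADS2, with 4 promoter peaks (11.95 at the strongest). HACD3 followed with 11.7, then ACSL4 with 10.1. Lower values were found at TECR (9.87), HSD17B12 (9.52), MECR (9.35), MBTPS1, the partner protease of MBTPS2 (8.63), ERG28 (7.52), GGPS1 (7.19), MCAT (7.11) and LBR (5.08).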

How the data were processed

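The authors aligned reads of the BMAL1, MAX and input libraries on hg19 with BWA 0.6.2 and used MACS2 2.0.9 to call the peaks of either antibody over the shared input. Per the file headers, the deposited pileup is the signal height of fragments extended to 300 bp, and the fold enrichment is that height as a ratio over the local background of the input. The deposited -log10 p-value and -log10 q-value are as given by the peak caller. The input background given here is pileup divided by fold enrichment. Its lowest value in the MAX list, about 1.28, was shared by 15.4% of the peaks, including 4 promoter peaks of the set. At these peaks the value is a floor and not input measured at the place. The BMAL1 list (756 peaks) was made from 13866783 tags, the MAX list (13650 peaks) from 11545865, with 29308882 input tags. At most 2 tags per position were kept for BMAL1 and 1 for MAX. The headers record a p cutoff of 1e-05 and the methods 1e-08, and all listed peaks were used.

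Summits were assigned to every gene with a TSS of any transcript within 1 kb in GENCODE release 44 on GRCh37, the assembly of hg19; peak positions were checked to lie within its chromosomes. Peaks inside a gene but farther from its TSSs were counted separately. Motifs were searched on both strands. Shares carry Wilson 95% intervals. All 28 genes are named; other genes are named when they share a promoter peak, or belong to 23 further pathway genes and have one. The value of 1 such gene is not reported here. The genes and lists were chosen with earlier results of these data known. The alternatives covered the TSS window, the transcripts, the p threshold, the background genes and the motif window. Assignment and motif search were tested on simulated data. The scripts ran on Python 3.11.15 with pysam 0.24.0 for sequence, scipy 1.17.1 for intervals, pandas 2.3.3 and numpy 2.4.6 for tables, and matplotlib 3.10.9 for plots.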

Additional observations from a re-analysis of the deposited data

How the results depend on the processing

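The number of genes with a MAX promoter peak was 22 or 23 under 7 of the 8 alternatives and 17 at p 1e-12, where ACACA, ACAT2, ACSS2, FDPS, LSS and TM7SF2 were lost. The count for BMAL1 was 0 under all of them. INSIG1 was lost when the summit or the peak had to lie within 300 bp of a TSS, and ACAT2 at p 1e-08. The share of all protein-coding genes with a MAX peak, 36.3% as reported, was 29.03% with summits within 300 bp and 38.3% within 2 kb, 33.7% with any base of the peak within 300 bp, 35.0% with protein-coding transcripts, 32.3% with canonical TSSs, 34.0% at p 1e-08 and 23.4% at p 1e-12. It was 31.1% when a peak was given only to its nearest protein-coding TSS, a setting added after the data were seen, 49.7% in genes with CpG-rich promoters and 56.2% in those that also had at least 8 TSSs. In the same order, the settings that moved the BMAL1 share of 1.84% gave 1.35%, 2.08%, 1.63%, 1.48% with canonical TSSs, 1.39% at p 1e-12, 1.55%, 2.53% and 3.10%. The median fold enrichment of 10.9 stayed between 10.2 and 11.8. The 6 peaks with CACGTG became 1 in a window of 100 bp. The share over all MAX promoter peaks, 20.5%, was 12.9% in 100 bp, 26.5% in 400 bp, 25.9% with the E'-box and 21.6% at p 1e-08. With 1 library per antibody and a median of 18 fragments at a MAX summit, no replicate shows whether a gene near the threshold, such as ACAT2, would be listed again. No paired analysis was possible because the groups hold 1 library each.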
